A study of Rattus norvegicus with 12 samples.

Results

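The chemokine genes of the array, 50 of 35833 gene names, were followed in rat small hepatocytes on 3 coatings and in mature hepatocytes. They are all genes whose name in the scanner files starts with Ccl, Cxcl, Ccr or Cxcr and a digit, or is Cx3cl1 or Cx3cr1. These were 33 ligands and 17 receptors, read by 69 probes in 127 spots, and 15 genes had more than 1 probe. Small hepatocytes are liver progenitor cells that can give rise to hepatocytes. All animals were F344 rats of a strain positive for dipeptidylpeptidase IV. In the groups LN111, LN511 and Mat, cells from collagenase-perfused livers were plated, and on day 9 those carrying CD44 on their surface were selected with magnetic beads. These grew on Matrigel, a basement membrane extract, and at passage 2 they spent 3 h on laminin-111, laminin-511 or Matrigel before RNA was taken. Their serum-free DMEM/F12 held 10 ng/mL epidermal growth factor and 10 mM nicotinamide, with dexamethasone, insulin, transferrin and selenium, ascorbic acid 2-phosphate, albumin, proline, buffer and antibiotics. The group MH, the control, is mature hepatocytes isolated from fresh livers, for which no culture is given, although the labels list that medium for every sample. Each group had 3 arrays. The labels do not say that replicates were separate animals or cultures, so that a p-value covers only how these samples vary, and that variation may be technical.

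Chemokines are small secreted proteins that draw leukocytes along a gradient, and they are grouped as CC, CXC and CX3C by the spacing of their first cysteines. They act on receptors coupled to G proteins, which are carried mostly by leukocytes, so the cell that makes a ligand and the cell that answers it are usually different. In injured liver, hepatocytes, bile duct cells, Kupffer cells (the resident macrophages) and stellate cells all release them, with NF-kB, AP-1 and the interferon pathway as known inputs to their promoters.

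Values below are levels or differences of levels. A level is the log2 of the processed signal minus that of the 75th percentile of its array, so that 0 is the signal of the spot at that percentile. Levels of different probes are not on one scale, and each is set only against the same probe in other groups. No spot was saturated, and an array had 52.18% to 62.75% of its spots well above background. Repeat spots of 1 probe varied by 11% on LN111 replicate 3 and by 3.15% to 4.17% on the other 11 arrays. The MH arrays and Mat replicates 1 and 2 shared slide 1, and the other arrays lay on slide 2. As checks of the labels, Alb (albumin) fell by 1.37 ± 0.16 in the cultured groups (adjusted p = 2.3e-05), and Krt19, a keratin of progenitor and bile duct cells, was at least 563-fold higher (adjusted p = 5.13e-07). Cd44, the sort marker, was at least 403-fold higher, which is no finding.

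Chemokine genes differed between the cultured cells and MH in both directions. Of the 29 members tested, 25 passed in the mean of the 3 cultured groups against MH (adjusted p under 0.05, limma), 12 of them higher and 13 lower. The same rule called 72.8% of all 18927 genes, 30.8% higher and 42% lower, so that a call against MH is common on this array. Of all calls, 42.3% were higher, against 26.8% with normexp, 56.1% with quantile scaling and 78% unscaled, and these scalings moved the median of all genes from -0.18 to -0.40, 0.18 and 0.86. The median difference was -0.86 over the members tested and -0.18 over all genes. Of the ligands, 24 were tested, 11 rose and 10 fell. Among those called, Ccl2, Ccl7, Ccl11, Ccl20, Cx3cl1, Cxcl2, Cxcl3 and Cxcl6 entered the test through cultured groups alone. Ccl4, Ccl6, Ccl12, Ccl24 and Cxcl11 entered it through MH alone. For these ligands the direction was likely beforehand. Each coating taken alone against the same MH arrays gave 26 members called on LN111, 23 on LN511 and 25 on Mat, against 66.7%, 67.6% and 67.3% of all genes. With slide as a block these counts were 20, 18 and 25, against 43.0%, 44.3% and 62.4% of all genes. No LN111 or LN511 array shared a slide with MH. Within slide 1, which held MH and 2 Mat arrays, the difference of Mat from MH had the same sign for 25 of the 25 members called, at 9.39 for Ccl2, 6.74 for Cxcl1, -5.10 for Cxcl11 and -10.05 for Ccl6. These arrays were part of the fit that called the 25, so the shared sign is no independent check. Culture, sort, medium and passage all separate the cultured cells from MH and cannot be told apart. In RNA from whole samples, fewer cells of a type and less RNA per cell cannot be told apart either.

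**Figure D1:**
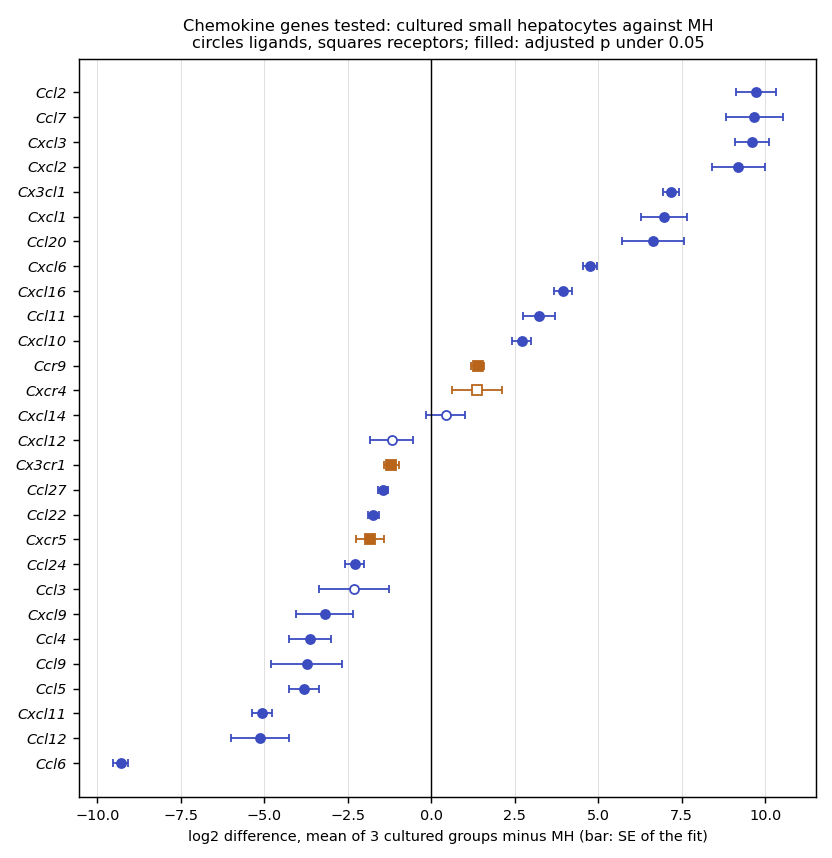
Differences in level (log2, x axis) between the mean of LN111, LN511 and Mat and MH for 28 of the chemokine genes tested, with the standard error of the fit as a bar; circles are ligands, squares receptors, and filled symbols have an adjusted p under 0.05. Ccl2, Ccl7, Cxcl3 and Cxcl2 lie highest, at 9.19 to 9.72, and Ccl6 lowest, at -9.31; fitted differences of genes below background in 1 group are no folds.

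All 4 neutrophil-attracting CXC ligands on the array, which carry the ELR motif and act on Cxcr1 and Cxcr2, were tested and rose. Of all genes, 30.8% were called higher. Cxcl2, Cxcl3 and Cxcl6 entered the test through the cultured groups alone, so that for them a rise was likely beforehand. The median fitted difference of the 4 was 8.08, which is no fold, as Cxcl3 and Cxcl6 were below background in MH. Cxcl1 stood at 5.29, 3.09 and 5.51 on LN111, 4.74, 4.10 and 4.52 on LN511, 4.68, 3.90 and 4.77 on Mat and -1.25, -4.49 and -1.63 in MH. All 9 cultured arrays lay above the 3 MH arrays, by 6.96 ± 0.69 on average (standard error, SE; adjusted p = 6.73e-06). Cxcl2 stood at 4.19, 1.87 and 4.76 on LN111, 5.21, 3.81 and 4.74 on LN511, 4.22, 3.04 and 4.30 on Mat and -4.21, -7.36 and -3.96 in MH, a difference of 9.19 ± 0.79 (adjusted p = 2.36e-06). MH replicate 2 was the lowest MH array for both genes, and its Cxcl2 signal was not well above background.

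Cxcl3, of the same class, stood at 2.91, 0.51 and 2.62 on LN111, 3.22, 1.75 and 2.32 on LN511, 2.55, 1.31 and 2.68 on Mat and -7.36, -7.62 and -7.19 in MH. No MH array measured it above background, and it was at least 314-fold higher in the cultured groups (adjusted p = 7.39e-08). Such a bound divides the mean of the group that measured the gene by a floor for the other group. The floor averages, over that group's arrays, the dimmest signal still well above background, or the gene's own signal where that is higher. Cxcl6, listed in the RefSeq gene table with the older name Cxcl5, stood at -2.31, -3.16 and -2.27 on LN111, -2.59, -2.50 and -1.92 on LN511, -2.84, -2.91 and -2.52 on Mat and -7.24, -7.55 and -7.14 in MH. It too was below background in MH, and was at least 11.5-fold higher (adjusted p = 2.83e-08). The second probes of Cxcl3 and Cxcl6 were above background on all 9 cultured arrays and on no MH array. No probe of a member shared a run of more than 13 bases with a probe of another member, over the 60 bases of each.

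Cxcl2 and Cxcl1 are direct neighbours in the RefSeq gene table of the rat, and Cxcl3 and Cxcl6 follow them with 3 and 4 listed genes between. The promoters shown are those of the tested members with an NF-kB match. Of these, Cxcl1, Cxcl2, Cxcl6, Ccl20 and Cxcl10 rose, and Ccl9 and Cxcl11 fell. They are shown for that match, so that its presence in every window shown is no finding. Each is the 250 bases before the gene's start in RefSeq (build GRCr8), 5′ to 3′ on the gene's own strand, and capitals mark matches to any of 4 motifs on either strand: the NF-kB consensus, the AP-1 site TGANTCA, the interferon-gamma element TTCNNNGAA and the interferon-stimulated response element.
Cxcl1, chr14:17479322-17479571, minus strand: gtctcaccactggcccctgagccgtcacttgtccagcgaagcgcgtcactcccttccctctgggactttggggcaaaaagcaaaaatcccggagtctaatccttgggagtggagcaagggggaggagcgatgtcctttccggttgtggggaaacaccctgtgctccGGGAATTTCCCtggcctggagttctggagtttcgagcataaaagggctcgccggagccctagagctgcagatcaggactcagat
Cxcl2, chr14:17467256-17467505, minus strand: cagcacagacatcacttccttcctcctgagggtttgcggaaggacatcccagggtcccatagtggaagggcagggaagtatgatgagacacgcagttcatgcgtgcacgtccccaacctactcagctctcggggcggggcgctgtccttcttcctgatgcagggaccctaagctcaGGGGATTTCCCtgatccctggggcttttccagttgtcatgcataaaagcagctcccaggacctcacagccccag
Cxcl6, chr14:17596418-17596667, minus strand: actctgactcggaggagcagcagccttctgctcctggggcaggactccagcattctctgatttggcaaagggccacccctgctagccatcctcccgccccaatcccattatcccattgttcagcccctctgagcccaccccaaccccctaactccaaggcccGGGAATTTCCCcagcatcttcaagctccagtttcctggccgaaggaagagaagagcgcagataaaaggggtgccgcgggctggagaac
Ccl20, chr9:91836909-91837158, plus strand: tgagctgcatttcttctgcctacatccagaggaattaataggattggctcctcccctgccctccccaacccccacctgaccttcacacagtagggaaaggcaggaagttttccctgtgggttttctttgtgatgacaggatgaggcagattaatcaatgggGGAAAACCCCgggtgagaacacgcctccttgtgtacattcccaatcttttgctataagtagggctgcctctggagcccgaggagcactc
Ccl9, chr10:68868878-68869127, minus strand: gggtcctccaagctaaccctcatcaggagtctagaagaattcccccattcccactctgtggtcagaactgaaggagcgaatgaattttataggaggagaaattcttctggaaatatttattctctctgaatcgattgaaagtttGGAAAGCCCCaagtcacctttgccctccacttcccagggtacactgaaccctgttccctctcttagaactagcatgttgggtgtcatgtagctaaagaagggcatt
Cxcl10, chr14:15988816-15989065, plus strand: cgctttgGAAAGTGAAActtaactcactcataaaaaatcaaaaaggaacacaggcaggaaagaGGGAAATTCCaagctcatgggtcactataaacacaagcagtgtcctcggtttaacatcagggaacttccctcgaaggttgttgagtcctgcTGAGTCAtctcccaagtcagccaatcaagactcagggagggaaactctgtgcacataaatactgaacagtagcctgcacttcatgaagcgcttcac
Cxcl11, chr14:15973478-15973727, plus strand: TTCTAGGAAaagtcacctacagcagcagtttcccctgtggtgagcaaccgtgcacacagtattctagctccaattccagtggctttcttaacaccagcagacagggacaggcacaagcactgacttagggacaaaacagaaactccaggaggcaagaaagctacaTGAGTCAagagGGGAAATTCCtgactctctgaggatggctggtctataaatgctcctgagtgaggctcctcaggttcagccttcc

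In Cxcl1, Cxcl2 and Cxcl6 the capitals are NF-kB matches on both strands that overlap by all but 1 base, and they begin 84, 74 and 88 bases before the start. The Ccl20 match begins 89 and the Ccl9 match 106 bases before it. In Cxcl10 the capitals are, from the left, an interferon-stimulated element, an NF-kB match at 187 and an AP-1 site at 96 bases. In Cxcl11 they are an interferon-gamma element, an AP-1 site at 85 and an NF-kB match at 74 bases. No different motifs overlapped in these 7 windows. RefSeq promoters were at hand for 38 of the 50 members and for 33469 entries in all. An NF-kB match was in 8 of the 38 (Ccl9, Ccl20, Ccr3, Cxcl1, Cxcl2, Cxcl6, Cxcl10 and Cxcl11) and in 3.54% of all. The AP-1 site was in 6 and in 6.34%, the interferon-gamma element in 4 and in 7.67%, and the interferon-stimulated element in 2 and in 3.41%. Of the 7 members with an NF-kB match that were tested, Cxcl1, Cxcl2, Cxcl6, Ccl20 and Cxcl10 rose, while Ccl9 and Cxcl11 fell. A match is a run of letters in this window, not a bound site.

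Among the monocyte-attracting CC ligands, which act mainly on Ccr2, neighbours went opposite ways. Ccl2 stood at 5.70, 4.17 and 5.93 on LN111, 4.98, 2.27 and 3.70 on LN511, 5.0, 3.26 and 5.17 on Mat and -5.74, -5.01 and -5.03 in MH, and rose by 9.72 ± 0.60 (adjusted p = 2.21e-07), with MH well above background on 1 of 3 arrays. Ccl7 stood at 4.86, 2.87 and 4.54 on LN111, 2.29, -2.17 and 0.46 on LN511, 3.62, 1.28 and 3.78 on Mat and -7.11, -7.58 and -7.15 in MH. It was below background on every MH array and at least 356-fold higher in the cultured groups (adjusted p = 3.02e-06).

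Ccl12, the third of these ligands, stood at -4.85, -8.47 and -7.23 on LN111, -6.18, -7.88 and -5.0 on LN511, -6.05, -8.75 and -5.46 on Mat and -1.19, -1.53 and -1.82 in MH. It fell by 5.14 ± 0.88 (adjusted p = 0.000374), every cultured array lay below every MH array, and only 4 of the 9 cultured arrays were well above background. Ccl2, Ccl7, Ccl11 and Ccl12 lie next to each other, in that order, with no other gene listed between.

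**Figure D2:**
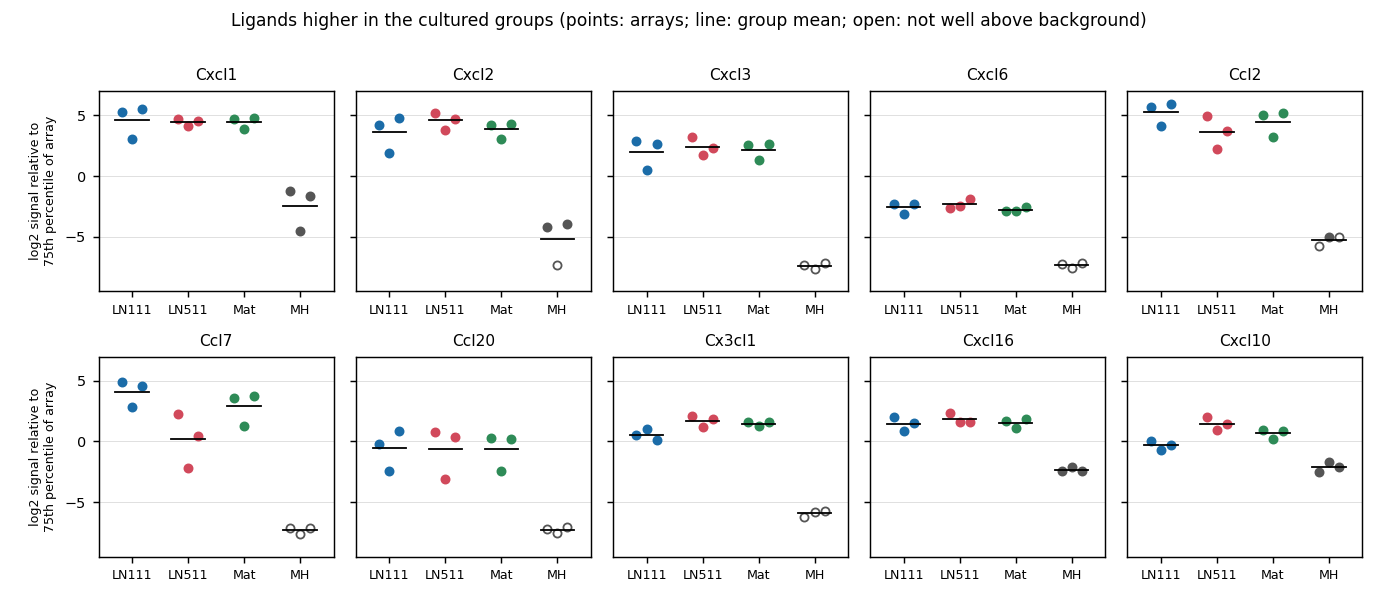
Levels (log2 relative to the 75th percentile of the array, y axis) of 10 ligands on each of the 12 arrays, by group; lines are group means and open points are signals not well above background. The 9 cultured arrays lie above the 3 MH arrays in every panel. Replicate 2 of each coating is the lowest of its group in all panels but those of Cxcl6 and Cx3cl1.

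Several ligands that epithelial cells are known to make rose as well. Ccl20, which draws Ccr6-bearing lymphocytes and dendritic cells, stood at -0.21, -2.40 and 0.88 on LN111, 0.79, -3.10 and 0.40 on LN511, 0.31, -2.46 and 0.22 on Mat and -7.22, -7.50 and -7.06 in MH. No MH array measured it, and it was at least 44.3-fold higher (adjusted p = 9.71e-05), with replicate 2 of every coating the lowest of its group. Cx3cl1 (fractalkine), a membrane-anchored ligand that is shed from the surface, stood at 0.51, 1.00 and 0.12 on LN111, 2.14, 1.20 and 1.85 on LN511, 1.58, 1.25 and 1.58 on Mat and -6.25, -5.79 and -5.74 in MH. It was at least 134-fold higher (adjusted p = 3.21e-09) and varied little within a coating.

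Cxcl16, the other membrane-anchored chemokine, was measured on all 12 arrays. It stood at 2.00, 0.88 and 1.52 on LN111, 2.32, 1.57 and 1.64 on LN511, 1.71, 1.09 and 1.82 on Mat and -2.45, -2.08 and -2.45 in MH, and rose by 3.94 ± 0.26 (adjusted p = 3.18e-07).

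The 3 ligands of Cxcr3, the interferon-induced Cxcl9, Cxcl10 and Cxcl11, did not move as 1 class, although they are direct neighbours in the gene table. Cxcl10 stood at 0.01, -0.69 and -0.28 on LN111, 2.01, 0.92 and 1.40 on LN511, 0.96, 0.20 and 0.87 on Mat and -2.51, -1.67 and -2.13 in MH, and rose by 2.70 ± 0.27 (adjusted p = 8.18e-06). Cxcl11 stood at -8.22, -8.27 and -7.82 on LN111, -5.75, -5.28 and -5.81 on LN511, -6.08, -7.48 and -6.12 on Mat and -1.71, -1.32 and -2.02 in MH. It fell by 5.08 ± 0.29 (adjusted p = 1.35e-07), and 2 of the 9 cultured arrays were well above background. Cxcl9 stood at -2.74, -5.58 and -6.00 on LN111, -2.70, -5.21 and -5.01 on LN511, -3.36, -6.42 and -3.26 on Mat and -1.27, -1.33 and -1.22 in MH, and fell by 3.20 ± 0.86 (adjusted p = 0.00658), with the first LN111 and LN511 arrays and Mat replicates 1 and 3 closest to MH.

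Of the 5 inflammatory CC ligands, which activated macrophages and lymphocytes are known to make, 4 fell and Ccl3 did not pass. Of all genes, 42% were called lower. Ccl4 and Ccl6 entered the test through MH alone, so that for them a fall was likely beforehand. Ccl6 stood at -8.51, -8.30 and -7.49 on LN111, -7.05, -6.64 and -6.44 on LN511, -8.82, -8.16 and -8.28 on Mat and 1.46, 1.51 and 1.72 in MH. It was below background on all 9 cultured arrays and at least 332-fold lower than in MH (adjusted p = 8.1e-10), and its second probe was likewise measured on the 3 MH arrays alone. Ccl5 (RANTES) stood at -4.10, -5.46 and -5.36 on LN111, -3.06, -5.04 and -4.54 on LN511, -4.18, -5.50 and -4.35 on Mat and -1.22, -0.66 and -0.55 in MH, and fell by 3.81 ± 0.45 (adjusted p = 2.81e-05).

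Ccl9 stood at 2.46, -1.64 and 0.85 on LN111, 2.48, -0.98 and 1.79 on LN511, 2.16, -1.68 and 2.15 on Mat and 4.75, 4.21 and 4.76 in MH. It fell by 3.73 ± 1.06 (adjusted p = 0.00874), and replicate 2 of each coating was the lowest of its group. Ccl4 stood at -8.36, -8.20 and -6.40 on LN111, -4.67, -7.73 and -7.69 on LN511, -8.92, -8.54 and -8.13 on Mat and -4.19, -4.15 and -3.62 in MH, a difference of -3.64 ± 0.64 (adjusted p = 0.000442), and 1 of the 9 cultured arrays was well above background. With dim signals raised to the lowest signal well above background on the same array, the difference was -2.63.

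Ccl3, the ligand most related to Ccl4, stood at -4.10, -6.17 and -2.55 on LN111, -3.17, -8.06 and -4.93 on LN511, -4.90, -7.90 and -5.04 on Mat and -2.77, -3.20 and -2.72 in MH. LN111 replicate 3 lay above MH and LN511 replicate 1 inside its range, and the difference of -2.31 ± 1.05 did not pass (adjusted p = 0.069). Left out singly, LN111 replicate 3 or LN511 replicate 1 brought it past the threshold (adjusted p = 0.0445 and 0.0288), as did normexp correction (-1.47, adjusted p = 0.00969). Ccl5, Ccl9, Ccl6, Ccl3 and Ccl4 follow each other in the gene table, with 2 listed genes between Ccl9 and Ccl6 and none elsewhere.

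Markers of Kupffer cells and macrophages moved with these ligands. All 13 of the 14 listed markers that were tested fell, beside 42% of all genes called lower. Clec4f, Cd163, Cd5l, Marco, Adgre1 and C1qc entered the test through MH alone, so that for them a fall was likely beforehand. Clec4f fell by 10.17 ± 0.28 with 1 of the 9 cultured arrays above background, and Cd5l, Marco and Adgre1 were at least 177-, 81.8- and 27-fold lower. The summed signal of the 14 was 42.2 to 43.3 times the 75th percentile on the MH arrays and 1.04 to 7.63 times on the cultured arrays, where Cd5l, Marco, Adgre1 and Mrc1 were above background on none of the 9. LN511 replicate 1 had the highest cultured sum, and without it the others reached 2.93. Sinusoidal endothelium markers summed to 8.86 to 9.67 in MH and 0.0964 to 0.626 in the cultured groups. T, B and NK cell markers summed to 1.74 to 2.08 in MH and 0.305 to 2.13 in the cultured groups, and neutrophil markers, of which Ngp and Mmp8 were above background on no array, to 0.0952 to 0.160 and 0.0447 to 0.658. What part these cells had in the lower ligands was not tested.

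**Figure D3:**
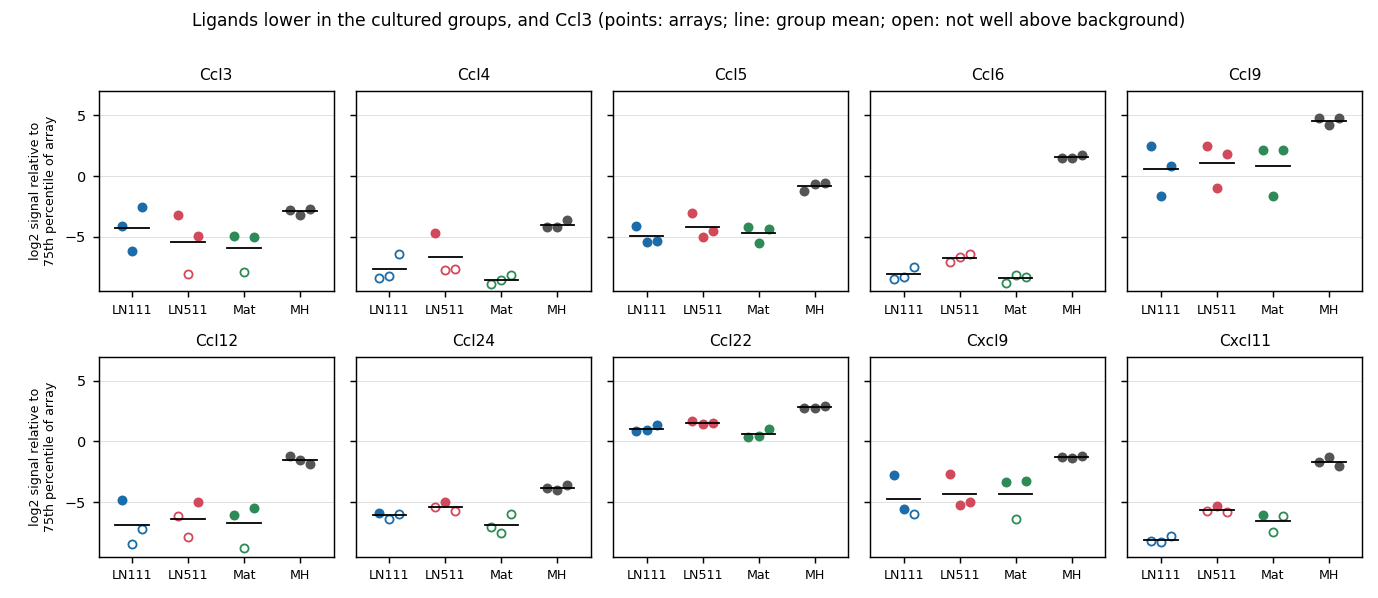
Levels (log2 relative to the 75th percentile of the array, y axis) of 10 ligands on each of the 12 arrays, by group; lines are group means and open points are signals not well above background. MH lies above all cultured arrays in 9 of the 10 panels, and Ccl3 is the exception.

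The remaining CC ligands tested went both ways. Ccl24, which draws eosinophils, stood at -5.92, -6.40 and -5.96 on LN111, -5.39, -4.98 and -5.72 on LN511, -7.05, -7.54 and -5.97 on Mat and -3.83, -3.98 and -3.62 in MH, and fell by 2.29 ± 0.29 (adjusted p = 4.29e-05), with 2 of the 9 cultured arrays above background. Ccl11 (eotaxin), of the same class, stood at -3.56, -3.04 and -1.11 on LN111, -6.69, -6.07 and -7.70 on LN511, -3.47, -3.73 and -3.58 on Mat and -7.51, -7.79 and -7.35 in MH. It was above background on the 3 LN111 and the 3 Mat arrays alone, and the cultured mean was at least 3.38-fold above MH (adjusted p = 0.000117), with LN511 replicate 3 inside the range of MH.

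Ccl22, made by dendritic cells and macrophages, stood at 0.84, 0.91 and 1.39 on LN111, 1.73, 1.47 and 1.49 on LN511, 0.37, 0.45 and 1.04 on Mat and 2.73, 2.78 and 2.94 in MH, and fell by 1.74 ± 0.17 (adjusted p = 6.14e-06) on its brightest probe. Its other 2 probes were above background on 8 and 5 of the 12 arrays and differed by -1.17 and -1.09. Ccl27, a ligand known from skin, stood at -2.90, -2.46 and -2.98 on LN111, -2.11, -2.47 and -2.33 on LN511, -2.58, -2.52 and -2.52 on Mat and -1.31, -0.79 and -1.22 in MH. It fell by 1.43 ± 0.15 (adjusted p = 1.08e-05), a second probe differed by -1.30, and the last of its 3 probes went the other way, by 0.83.

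Cxcl12 and Cxcl14, ligands that many stromal cells make without a stimulus, did not pass in the mean of the cultured groups against MH. Cxcl12 stood at 2.64, 1.73 and 3.07 on LN111, 0.05, -3.71 and -1.49 on LN511, 1.51, 0.30 and 1.64 on Mat and 2.01, 1.74 and 1.71 in MH, a difference of -1.18 ± 0.64 (adjusted p = 0.12). The 3 LN511 arrays were below MH and so were the 3 Mat arrays, while LN111 overlapped it. Taken alone against MH, LN511 was lower by 3.54 ± 0.79 (adjusted p = 0.00249), while LN111 (0.66 ± 0.79, adjusted p = 0.481) and Mat (-0.67 ± 0.79, adjusted p = 0.467) did not pass. Its other 2 probes differed by -1.60 and -3.32, the mean of the 3 probes passed (-2.04, adjusted p = 0.0164), and so did the brightest probe without LN511 replicate 1 (adjusted p = 0.0219). Cxcl14 stood at 1.56, -0.77 and 1.59 on LN111, -1.02, -2.23 and -1.31 on LN511, 0.60, -1.58 and 0.56 on Mat and -0.33, -1.09 and -0.72 in MH, with overlap between groups, a difference of 0.43 ± 0.59 (adjusted p = 0.534) and one of -0.41 on its second probe.

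Not tested were 9 ligands and 12 receptors, which no group measured above background on all 3 of its arrays. On no array at all were Ccl25, Ccl26 and Ccl28 measured, nor the receptors Ccr2, Ccr4, Ccr6, Ccr10, Cxcr1, Cxcr2 and Cxcr3. The other untested ligands, Ccl1, Ccl17, Ccl19, Ccl21, Cxcl13 and Cxcl17, and the receptors Ccr1, Ccr1l1, Ccr3, Ccr7 and Cxcr6 were above background on 1 to 4 arrays. So the receptors of most of the ligands that rose, Cxcr1 and Cxcr2, Ccr2 and Ccr6, were not detectable at the sensitivity of these arrays in any group.

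The receptors need their probes read one by one. Cxcr4, the receptor of Cxcl12, stood at -2.43, -4.83 and -2.06 on LN111, -3.98, -5.94 and -5.53 on LN511, -3.36, -6.17 and -3.11 on Mat and -5.45, -5.47 and -5.68 in MH. It was measured on 6 cultured arrays and on none of MH, groups overlapped, and the difference of 1.38 ± 0.75 did not pass (adjusted p = 0.119), though it did without LN111 replicate 2 or Mat replicate 2 (adjusted p = 0.0412 and 0.0264). Taken alone, LN111 was at least 5.38-fold above MH (adjusted p = 0.0371), a call lost with normexp correction, with slide as a block and without LN111 replicate 1 or 3 or any 1 MH array (adjusted p from 0.0720 to 0.725). LN511 and Mat did not pass (adjusted p = 0.726 and 0.222). Ccr9, the receptor of Ccl25, stood at -2.58, -2.37 and -2.59 on LN111, -1.42, -1.33 and -2.07 on LN511, -2.80, -2.44 and -2.66 on Mat and -3.24, -3.93 and -3.75 in MH, and rose by 1.39 ± 0.19 (adjusted p = 7.28e-05). Cxcr5, a B cell receptor, stood at -3.55, -4.24 and -5.84 on LN111, -3.62, -4.30 and -4.15 on LN511, -3.93, -4.16 and -3.58 on Mat and -1.90, -2.89 and -2.15 in MH, and fell by 1.84 ± 0.41 (adjusted p = 0.00221). On the unscaled deposited values the calls of Cxcr5, Ccl27 and Cx3cr1 against MH were lost (adjusted p = 0.134, 0.189 and 0.629). Ccr9 and Cxcr5 each have a second probe, and it was not above background on any of the 12 arrays.

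The brightest probe of Cx3cr1 holds a repeat, and the stretch is shown because calls on this receptor turn on it. The line gives 30 of the probe's 60 bases as the scanner file has them, 5′ to 3′, and the capitals are the 20 bases found most often in the promoter windows.
Cx3cr1, bases 31 to 60: aacagattCACACACACACACACACACAca
The capitals are a run of CA repeats, and 69 of the 33469 promoter windows held a 20-base stretch of this probe on one strand or the other. Of all 45598 probes, 72 shared a stretch with at least 50 windows, and leaving these out was a choice made after seeing the data.

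Cx3cr1, the receptor of fractalkine, stood on the repeat probe at -2.46, -1.78 and -2.43 on LN111, -0.30, -0.13 and -0.97 on LN511, -2.66, -2.75 and -2.41 on Mat and -0.96, -0.54 and -0.19 in MH. It fell by 1.20 ± 0.23 (adjusted p = 0.000771), and the LN511 arrays overlapped MH. Its other probe stood at -6.68, -5.95 and -5.48 on LN111, -4.84, -5.39 and -5.10 on LN511, -5.78, -5.86 and -6.66 on Mat and -3.53, -3.76 and -3.50 in MH, so that there all cultured arrays lay below MH, with a difference of -2.15 (adjusted p = 3.13e-05 without the repeat probes).

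**Figure D4:**
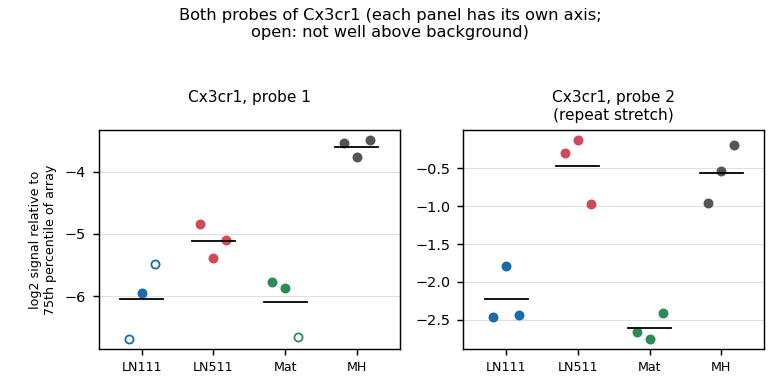
Levels (log2 relative to the 75th percentile of the array, y axis, a separate axis in each panel) of the 2 probes of Cx3cr1 on each of the 12 arrays; lines are group means and open points are signals not well above background. MH is above every cultured array on the probe without the repeat stretch, and LN511 overlaps MH on the probe with it.

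Other genes of the pathway were counted from lists. In the order below, 16 of 19, 7 of 9, 5 of 9, 7 of 12 and 3 of 5 genes tested passed, beside 72.8% of all genes. Those named are among the genes of smallest p in each list, so they need not show its direction. Of 21 NF-kB and cytokine inputs, 19 were tested, 11 rose and 5 fell: Relb rose by 3.55 ± 0.19, Tnfaip3, a feedback inhibitor, by 4.95 ± 0.39 and Nfkb2 by 1.83 ± 0.18, while Il1a lay lower by at least 61.1-fold (adjusted p = 6.84e-08, 1.34e-06, 5.59e-06 and 2.18e-08). Of 9 interferon inputs, 2 rose and 5 fell, with Stat2, Irf9 and Irf7 lower by 2.08 ± 0.18, 1.65 ± 0.16 and 1.82 ± 0.19. Of 12 atypical receptors and related genes, 9 were tested, 2 rose and 3 fell. Ackr3, which takes up Cxcl12, was at least 45-fold higher, Ackr2, which takes up inflammatory CC ligands, at least 8.9-fold lower, Rarres2 (chemerin) fell by 3.25 ± 0.39 and Xcl1 by 1.95 ± 0.23. Of 14 genes of receptor signalling, 12 were tested, 4 rose and 3 fell, with Ptk2b at least 13.6-fold higher, Arrb1 higher by 2.75 ± 0.33, Gnai2 by 1.63 ± 0.10 and Gnb1 by 0.97 ± 0.11. Of 5 genes that act on chemokine mRNA decay, in either direction, Zc3h12a, an RNase, was at least 11.5-fold higher. Zfp36l1 fell by 1.41 ± 0.17 and Elavl1 by 0.28 ± 0.12. Of the genes named here, Tnfaip3, Ackr3, Ptk2b and Zc3h12a entered the test through the cultured groups alone, and Il1a, Ackr2 and Xcl1 through MH alone. The medians of these 5 lists were 0.97, -0.58, -0.78, 0.02 and -0.08, beside -0.18 for all genes.

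Among the coatings, 24 members could be tested, and LN511 stood apart for a few of them. Between LN111 and LN511, 6 members passed, 2 higher and 4 lower on LN111, against 17.9% of all 17908 genes (6.13% higher, 11.8% lower). Of all calls, 34.2% were higher on LN111, against 23.7% with normexp, 50% with quantile scaling and 77.3% unscaled. The median difference was -0.44 over the members and -0.15 over all genes. Ccl11 (above) was at least 13.5-fold higher on LN111, as all 3 LN111 arrays measured it and none of LN511 did (adjusted p = 0.00521). Cxcl12 lay 4.19 ± 0.88 higher on LN111 (adjusted p = 0.0159), with 2.64, 1.73 and 3.07 against 0.05, -3.71 and -1.49. Groups did not overlap for either ligand, and without LN111 replicate 3 Cxcl12 missed the threshold (adjusted p = 0.0548).

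Cxcl10, with 0.01, -0.69 and -0.28 on LN111 and 2.01, 0.92 and 1.40 on LN511, was lower on LN111 (-1.76 ± 0.33, adjusted p = 0.0106). Cx3cl1 was lower too (-1.18 ± 0.29, adjusted p = 0.0295), though its call was lost, at adjusted p of 0.0512 to 0.0943, without LN111 replicate 1 or 3, LN511 replicate 1 or 3, or Mat replicate 1 or 3. Ccr9 was lower (-0.91 ± 0.21, adjusted p = 0.0231), and was lost at 0.0642 to 0.0727 without LN111 replicate 1 or 3 or LN511 replicate 1 or 2. Cx3cr1 was lower on the probe with the CA repeat (-1.76 ± 0.27, adjusted p = 0.00549), and its other probe differed by -0.93, which did not pass (adjusted p = 0.109 without the repeat probes). Unscaled, the calls of Cxcl10, Cx3cl1 and Ccr9 were lost as well (adjusted p = 0.0541, 0.275 and 0.487).

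Ccl7 and Cxcl14 did not pass between LN111 and LN511, though the 3 LN111 arrays lay above the 3 LN511 arrays for both. Ccl7 differed by 3.90 ± 1.17 (adjusted p = 0.0549), and passed without LN111 replicate 2 or LN511 replicate 1 (adjusted p = 0.0465 and 0.0299). It also passed with normexp correction and unscaled (adjusted p = 0.0407 and 0.0129). Cxcl14 differed by 2.31 ± 0.80 (adjusted p = 0.0848), and passed without LN111 replicate 2 and unscaled (adjusted p = 0.0212 and 0.0207). With the replicate number as a block in limma, Ccl7 and Cxcl14 both passed (adjusted p = 0.00306 and 0.00301), though that pairing is uncertain. None of the 4 neutrophil-attracting ligands passed, with differences from -0.98 ± 0.75 for Cxcl2 to 0.18 ± 0.60 for Cxcl1.

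Some markers of stellate cells and fibroblasts moved with Ccl11, Cxcl12, Ccl7 and Cxcl14 across the coatings. The summed signal of all 8 listed markers was 39.7, 47.9 and 69.3 times the 75th percentile on LN111, 9.96, 2.08 and 3.66 on LN511, 24.1, 16.4 and 25.8 on Mat and 1.89 to 2.20 in MH. Col1a1 was above background on all 9 cultured arrays, and lay 4.14 ± 0.61 higher on LN111 than on LN511 (adjusted p = 0.0051), with Acta2 3.88 ± 0.39 and Pdgfrb 4.32 ± 0.59 higher. These 3 of the 8 markers passed between LN111 and LN511. Lrat (-1.07 ± 1.14, adjusted p = 0.557) and Reln (-0.11 ± 1.13, adjusted p = 0.96), both genes that stellate cells are known to express, did not. Col1a1 alone made up 78.9% to 92.6% of the summed signal on LN111 and 50.6% to 70.0% on LN511. Mesothelium markers summed to 5.98 to 30.2 in the cultured groups, with the highest value on LN511 replicate 2, and to 0.0272 to 0.0483 in MH. Progenitor and bile duct markers ran the other way, from 96.2 to 153 on LN111 and from 265 to 378 on LN511, with Epcam -1.67 ± 0.33 and Krt8 -1.42 ± 0.27 on LN111 against LN511. The part of these cells in the differences between coatings, or in the ligands that rose against MH, was not tested.

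**Figure D5:**
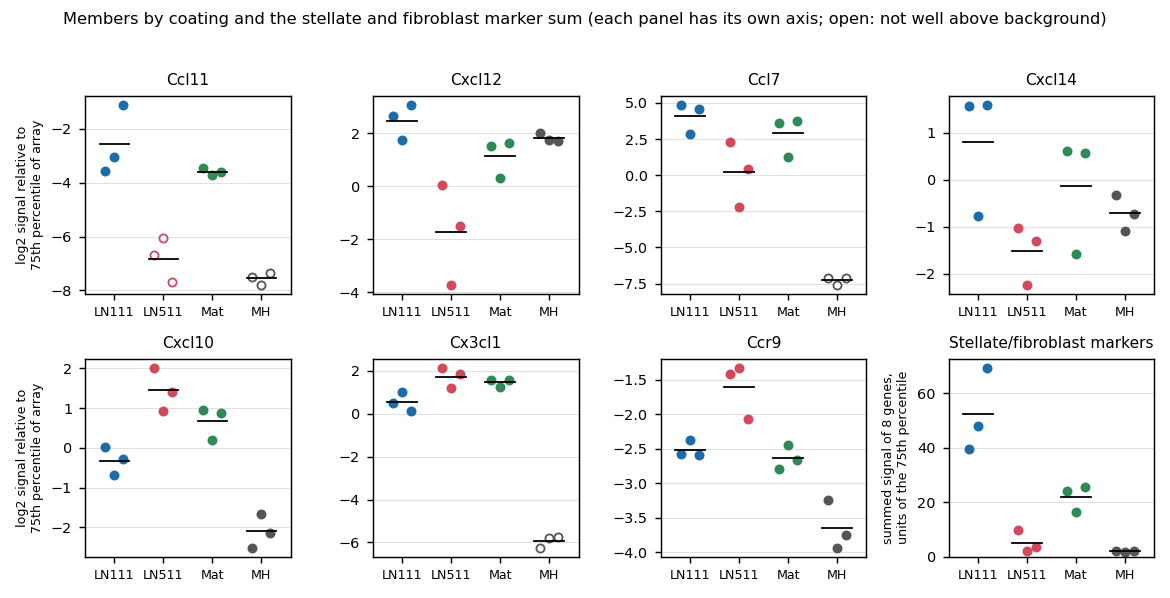
Levels (log2 relative to the 75th percentile of the array, y axis, a separate axis in each panel) of 7 chemokine genes on each of the 12 arrays, and in the last panel the summed linear signal of 8 stellate cell and fibroblast markers in units of that percentile; lines are group means and open points are signals not well above background. Ccl11, Cxcl12, Ccl7 and Cxcl14 are lowest of the coatings on LN511, as is the marker sum, while Cxcl10, Cx3cl1 and Ccr9 are highest there.

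Between LN511 and Mat, 5 members passed, 4 higher and 1 lower on LN511, against 8.23% of all genes (7.08% higher, 1.16% lower). Of all calls, 86% were higher on LN511, against 66.7% with quantile scaling and 4.1% unscaled, where Ccr9 and Ccl22 turned to -0.0675 and -0.16. The median difference was 0.23 over the members and 0.12 over all genes. With the replicate number as a block, 9 passed, 5 higher and 4 lower, against 13.3% of all genes. That block takes same-numbered arrays as pairs, which the labels do not say and the arrays leave uncertain. On LN511, Ccl11 lay lower by at least 6.63-fold (adjusted p = 0.0203; 0.0294 with the block), and with normexp correction the difference was -0.90 (adjusted p = 0.150). Ccr9 was higher by 1.03 ± 0.21 (adjusted p = 0.024, and 0.0143 with the block), and Ccl22 by 0.94 ± 0.22 (adjusted p = 0.0414, and 0.0250 with the block). Cx3cr1 was higher by 2.14 ± 0.27 on its repeat probe (adjusted p = 0.00359), and its other probe differed by 0.99 (adjusted p = 0.144).

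The block added Ccl7 (-2.70, adjusted p = 0.0170 against 0.228 without it), Cxcl12 (-2.87, 0.0188 against 0.0948), Cxcl14 (-1.38, 0.0259 against 0.38) and Cxcl10 (0.77, 0.0178 against 0.222). The slides bear on all of these, since the LN511 arrays lay on slide 2 with 1 of the 3 Mat arrays. With slide as a block no member passed (Cx3cr1 at adjusted p = 0.0804), and the values of Ccl11, Cx3cr1, Ccr9 and Ccl22 set against the Mat array of slide 2 alone were -3.24, 1.95, 1.06 and 0.52. Without any 1 of the LN511 or Mat arrays 1 to 3 members passed, and the Cx3cr1 call was kept each time (adjusted p up to 0.0211). Ccl11 lost its call without LN511 replicate 1 or 3 or any Mat array, Ccr9 without LN511 replicate 1 or 2 or Mat replicate 1 or 3, and Ccl22 without any but Mat replicate 3 and without LN111 replicate 1 or 2.

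Between LN111 and Mat no member passed in limma, and none of the 17908 genes did (0% called), while 2 members and 2182 genes had an unadjusted p under 0.05. The 3 members with the smallest p were Cx3cl1 (-0.93 ± 0.29, adjusted p = 0.341), Cxcl10 (-0.99 ± 0.33, adjusted p = 0.345) and Ccl22 (0.43 ± 0.22, adjusted p = 0.469). For Cx3cl1 and Cxcl10 all LN111 arrays lay below all Mat arrays, and within slide 2 the differences were -1.03 and -1.19. An F test of any difference among the 3 coatings called 5 members, Ccl11, Cx3cr1, Ccr9, Cxcl10 and Cxcl12, against 13% of all genes (adjusted p = 0.0104, 0.00533, 0.0269, 0.0263 and 0.0373).

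The order of the coatings differed between members. For the means of Ccl11, Cxcl12 and Ccl7 it was LN111, Mat, LN511 from high to low, with LN111 and Mat not told apart by the test. Without the replicate block, Cxcl12 passed between LN111 and LN511 alone and Ccl7 between no pair. For Cxcl10 and Cx3cl1 the order was LN511, Mat, LN111, in which only the outer pair passed without the replicate block. Cxcl1, Cxcl2, Cxcl3, Cxcl6, Ccl20 and Cxcl16, which rose against MH, passed between no pair of coatings, and their replicates on 1 coating spread by up to 3.89 log2 units (Ccl20 on LN511).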

How the data were processed

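RNA (100 ng per sample, Cy3) was hybridised to one-colour Agilent rat arrays, 3 for each of 4 groups, taken from the sample labels. Scanner intensities were extracted with Agilent Feature Extraction 10.7, per the submitters' processing notes, and the deposited processed intensity is background-subtracted and detrended, per the file headers. A deposited value table holds the same intensities unscaled, with column medians of 31.8 to 130.75. From these, log2 of the processed intensity minus that of each array's 75th percentile was computed, outlier-marked spots were dropped and repeat spots averaged (45489 of 45598 probes kept). Each gene was read from its brightest probe, among probes that all 3 arrays of some group measured well above background. Probes were named through RefSeq accessions or symbols (GRCr8 tables) where these matched, and as in the file otherwise (16268 probes).

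Genes were tested with limma 3.58.1 (R 4.3.3; lmFit and eBayes) with Benjamini-Hochberg adjustment over all genes and a threshold of 0.05. All 12 arrays entered the comparisons with MH and the 9 cultured arrays those among coatings. The script was tested on simulated data. Deviations from the group means of same-numbered LN511 and Mat arrays correlated at 0.54, 0.72 and 0.13. The main fits took no pairs, and the replicate number entered as a block only in an alternative fit. The labels do not give pairs. LN511 replicate 1 correlated at 0.54 with Mat replicate 3 too, and LN511 replicate 3 at 0.20 with Mat replicate 1, so the pairing is uncertain. The number of arrays limits the precision. Alternatives were other background, scaling, filter and probe rules, slide and replicate blocks, and each array left out.

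Named genes are the members tested and listed genes that a count rests on; 1 member and 1 listed gene enter the counts but are not reported here. Members and lists were chosen with earlier results of these data known.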

Additional observations from a re-analysis of the deposited data

How the results depend on the processing

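Against MH, 21 of the 24 called members described here kept direction and call under every processing alternative that tested them (exceptions Ccl27, Cx3cr1 and Cxcr5), and 24 of 24 with any 1 array left out. Between LN111 and LN511 these were 2 and 3 of 6, and between LN511 and Mat 0 and 1 of 4. Under the strict filter on dim probes, which tested 9 of these 24 and 12 members in all, the counts were 10 for the cultured mean and 10, 9 and 10 for LN111, LN511 and Mat against MH. With the replicate number as a block, 10 members passed between LN111 and LN511, 9 between LN511 and Mat and 10 in the F test. Ccl7 and Cxcl14 passed so between LN111 and LN511 (adjusted p = 0.00306 and 0.00301). Same-numbered arrays correlated at 0.47, 0.54 and 0.067 between LN111 and LN511 and at 0.55, 0.71 and 0.09 between LN111 and Mat. The pairing is thus uncertain in these 2 comparisons too. Between LN511 and Mat 3 passed with quantile scaling, 8 unscaled, 0 with slide as a block and 3 without the repeat probes, against 6.36%, 61.3%, 0.732% and 7.94% of all genes. The F test called 8 with normexp, 8 unscaled and 2 with slide as a block. Leaving out 1 array gave 25 to 27 members for the cultured mean against MH, 24 to 28 for LN111, 21 to 24 for LN511 and 22 to 26 for Mat, then 4 to 9 between LN111 and LN511, 0 between LN111 and Mat, 1 to 5 between LN511 and Mat and 3 to 5 in the F test. Directions turned for Cxcl14 against MH with slide as a block (-0.39), and unscaled for Ccl22 between LN111 and Mat (-0.18) and for Ccl22 and Ccr9 between LN511 and Mat (-0.16 and -0.0675). The cause was not tested. Signal over background limits what can be read of the 21 members not tested.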
